A study of Danio rerio with 6 samples.

Results

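Between the few genes that changed severalfold in glucocorticoid-deficient zebrafish larvae and the many that hardly changed lay a band of well-expressed genes with a moderately lower level in the mutants. The genes of this band were chosen on the counts themselves. Levels are given as CPM, the reads of a gene scaled to the total of exonic reads of its library (counts times 1000000 over the library total). A gene was taken if its mean in the sibling pools was at least 50 CPM, if all 3 mutant pools lay below all 3 sibling pools, and if the log2 ratio of the mutant to the sibling mean, with 0.5 CPM added to each, was at most -0.3 and above -0.7. Of 31388 genes in the table, 3581 reached the level of 50 CPM, and 109 of these met the other conditions. They make up 3.04% of the abundant genes. A further 4 genes met the rule but were left out by name (*rhcga*, *pnp4b*, *ampd1* and *pklr*). Because the difference between the genotypes chose the members, their differences are a description. Counts of calls among them stand beside the share over all genes, and nothing is read from them.

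The samples were whole larvae of *Danio rerio* at 5 dpf, collected at ZT03, that is in the early hours of the light phase. The count columns of all pools also carry the mark CTR, which the study uses for control larvae not treated with dexamethasone. For its metabolite measurements the study defines CTR as vehicle. Whether the sequenced pools also received vehicle is not stated. *fdx1b*-/- larvae lack a mitochondrial ferredoxin needed for steroid synthesis and are deficient in cortisol. The study sorted them by their impaired visual background adaptation. They were compared with siblings, which the study calls wild-type and the labels name only as siblings. Each of the 3 *fdx1b*-/- and 3 sibling samples was a pool of 20 larvae, so differences between single larvae are averaged, and nothing in the sources states that the pools of different genotypes were paired. The labels do not say whether the pools came from separate clutches, and p-values measure only the spread between these pools. Reads were single-end and 50 bases long, from total RNA depleted of ribosomal RNA.

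Glucocorticoids bind a nuclear receptor that switches on genes of glucose production, amino acid breakdown, stress response and clock output in many tissues. A whole larva at this age holds a functional exocrine pancreas, whose acinar cells make large amounts of digestive enzyme mRNA, together with a large mass of fast muscle and a nervous system with active synapses. In fish, cortisol also acts in muscle, in brain and in the ion-transporting cells of the skin. RNA of the whole animal is a mixture, so fewer cells of a type and less RNA per cell cannot be told apart in any of the values below.

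Exonic counts summed to between 37099965 and 43594050 in the *fdx1b*-/- pools and to between 18247332 and 49908095 in the sibling pools, sibling pool 2 being the smallest. The lowest count of any member in any library was 796. Markers of the expected tissues were present in all 6 pools, among them *mylpfa* of fast muscle at between 3667 and 4883 CPM, *try* of the pancreas at between 1652 and 2218 CPM, and *syt1a* of neurons at between 124 and 169 CPM. The targeted gene itself was not analysed here. *fkbp5*, a gene that glucocorticoids induce, had 2.08, 3.19 and 5.16 CPM in *fdx1b*-/- pools and 16.0, 15.9 and 20.1 CPM in sibling pools, with no overlap. By edgeR 0.497% of all 26544 tested genes were called lower and 0.618% higher, and 10.4% were lower and 9.21% higher at an unadjusted p under 0.05.

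The members together took 1.4%, 1.36% and 1.49% of all counts in *fdx1b*-/- pools 1, 2 and 3, against 1.84%, 1.90% and 1.83% in sibling pools 1, 2 and 3. Their median level was 66.2 CPM in *fdx1b*-/- larvae and 88.0 CPM in siblings, and 15 of them had a mean of at least 200 CPM in siblings. The log2 ratios crowded towards the upper limit: 69 members lay above -0.4, the median was -0.37, and 14 lay at or below -0.5. Within the lists and roles below, the mean of a member was between 18.9% and 38.3% lower in *fdx1b*-/- larvae. In the plot of ratio against level the members form a narrow band below the mass of abundant genes.

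**Figure D1:**
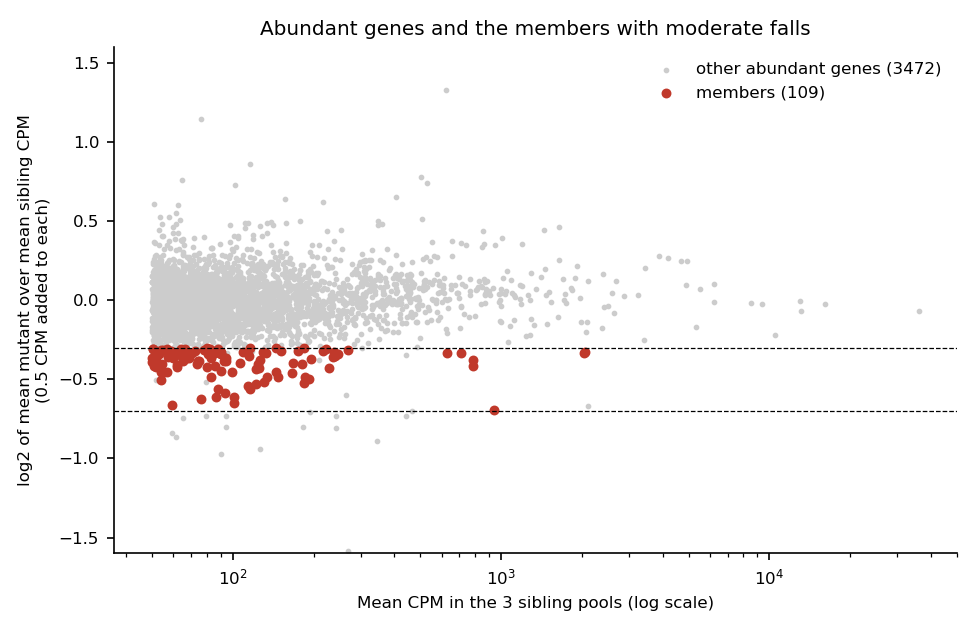
Mean level in the 3 sibling pools (horizontal, CPM, log scale) and log2 ratio of the *fdx1b*-/- mean to the sibling mean (vertical, 0.5 CPM added) for the 3581 abundant genes. The 109 members (red) lie between the dashed limits of the rule at -0.3 and -0.7; grey points between the limits are genes whose pools overlapped or that were left out by name, and 14 genes lie outside the plotted range.

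Where the limits fell decided several memberships. *ckmt2b* (log2 ratio -0.3006) was just inside the upper limit and *phka2* (-0.2999) just outside. At the lower limit, *zgc:136461* (-0.697) was inside and *c6ast4*, an astacin-type protease gene, was outside at -0.703, as was *pck1* at -0.707. The level limit separated *dock3* (50.05 CPM in siblings) from *stk35* (48.7 CPM). *slc6a1a* was a member with a highest *fdx1b*-/- value of 70.4 CPM against a lowest sibling value of 70.7 CPM, whereas *camta1b* missed with 79.48 against 79.43 CPM. In all, 13 abundant genes had a ratio within the limits but overlapping pools. Separation of the pools was common by itself, as 643 abundant genes (18.0%) had all *fdx1b*-/- pools below all sibling pools and 647 (18.1%) had them all above.

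The difference of the genotype means on the log2 scale exceeded 2 pooled standard deviations in 102 members. The rule makes such a gap likely, since it asks for full separation of the pools. The share over all abundant genes was not computed, so nothing is read from this count. A call by the quasi-likelihood test of edgeR over all genes needed a Benjamini-Hochberg adjusted p up to 0.01 and a log2 fold change of 0.25 or more in either direction. On these terms 26 of the 109 members were called lower, beside 0.497% of all tested genes and 1.26% of the abundant ones. The Wald test of DESeq2 called 97 members, beside 4.29% of the abundant genes that had an adjusted p. The members were chosen on this very contrast, so nothing is read from these counts. The edgeR count of members also depended on single pools. It was 75 without sibling pool 3 (background 1.26%) and 46 without sibling pool 2 (background 0.869%). With any other pool left out it was between 7 and 9, beside 59 or 60 of all tested genes called lower. Whichever of the 6 pools was left out, the same 7 members were called, namely *ankrd1b*, *afp4*, *sec23b*, *mych*, *ulk2*, *zgc:154142* and *pfkma*. The share of all genes called in every one of these fits was not computed, so nothing is read from this count either.

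Digestive enzymes of the exocrine pancreas were among the members with the highest levels. *CELA1* (ENSDARG00000043175), a pancreatic elastase, had 1596, 1512 and 1808 CPM in *fdx1b*-/- pools, against 1956, 2003 and 2222 CPM in sibling pools. The highest *fdx1b*-/- pool lay close below the lowest sibling pool, and the edgeR log2 fold change was -0.33 (SE 0.07). A second *CELA1* locus (ENSDARG00000017314) differed from it by at most 1.14% in any pool, less than the tolerance of 2% set for near-identical counts. The pair therefore cannot be taken as separate measurements. Both loci are nevertheless counted among the 109 and in every count and sum of digestive genes below. *zgc:136461* (ENSDARG00000093844), a chymotrypsinogen gene by the name *ctrb.2* in the reference table, had the largest difference of all members. Its level was 581, 501 and 666 CPM in *fdx1b*-/- pools and 863, 911 and 1061 CPM in sibling pools (log2 fold change -0.70, SE 0.11). Every *fdx1b*-/- pool lay far below every sibling pool. *ela3l*, a further elastase, had 567, 538 and 661 CPM in *fdx1b*-/- pools and 731, 720 and 910 CPM in sibling pools. *amy2a*, the pancreatic alpha-amylase, had 555, 520 and 611 CPM in *fdx1b*-/- pools and 716, 671 and 738 CPM in sibling pools. In each of these enzymes *fdx1b*-/- pool 2 was lowest and *fdx1b*-/- pool 3 highest within the mutants, and sibling pool 3 was the highest of all 6. The gene of the secreted phospholipase *pla2g1b* had 79.7, 82.3 and 89.8 CPM in *fdx1b*-/- pools against 113, 128 and 123 CPM in sibling pools (log2 fold change -0.53, SE 0.07). The remaining digestive members were the chymotrypsin-like *ctrl*, the carboxypeptidases *cpa1* and *cpa4*, and the metalloproteinase *mmp30*.

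The difference was uneven across the digestive list, which holds meprins and astacin-type proteases beside the enzymes that acinar cells make. Of 37 tested genes of the digestive list, 31 had a log2 fold change below 0 and the median was -0.20, beside -0.003 over all tested genes. These include the 10 members, whose direction the rule fixed. Of the 27 genes that are not members, 21 lay below 0, their median was -0.12, and 1 was called lower by edgeR, against 3 by DESeq2 and 6 at an unadjusted p under 0.05, with 0 higher on each count. By edgeR 3 of the 37 were called lower, the members *zgc:136461* and *pla2g1b* and the non-member *c6ast4*, and 0 higher, against 13 lower and 0 higher by DESeq2 and 16 lower and 0 higher at an unadjusted p under 0.05. *c6ast4* had 272, 268 and 315 CPM in *fdx1b*-/- pools and 411, 455 and 526 CPM in sibling pools (log2 fold change -0.71, SE 0.10, adjusted p = 0.00256). Its groups did not overlap. The trypsin gene *try* had 1820, 1652 and 1941 CPM in *fdx1b*-/- pools against 1998, 2000 and 2218 CPM in sibling pools, a log2 fold change of -0.20 (SE 0.07) that was not called. *ctrb.3*, a close relative of *zgc:136461*, had 1159, 1125 and 1235 CPM in *fdx1b*-/- pools and 1243, 983 and 1350 CPM in sibling pools. In *ctrb.3* the groups overlapped and the log2 fold change was -0.02 (SE 0.10), so the 2 chymotrypsinogen genes had unlike values in the same pools, although whether they differ from each other was not tested. The summed level of the digestive list, with both near-identical *CELA1* loci in it, was 17447, 16369 and 19038 CPM in *fdx1b*-/- pools. In sibling pools it was 20035, 19383 and 22550 CPM. Only uniquely mapped reads were counted, so reads that match several highly similar protease genes can be lost, and single loci of this family are uncertain.

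**Figure D2:**
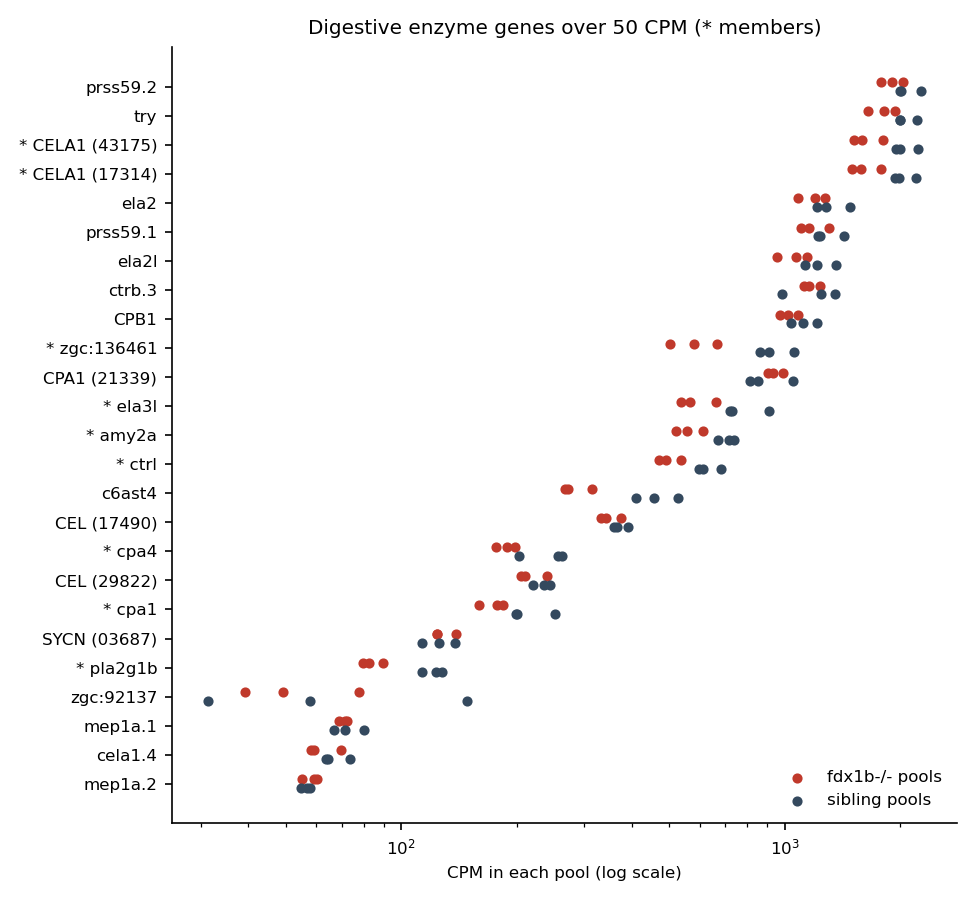
Level in each pool (horizontal, CPM, log scale) of the genes of the digestive list with a mean above 50 CPM, *fdx1b*-/- pools in red above sibling pools in dark blue, members marked with an asterisk and loci of shared name by the last digits of their identifier. The *fdx1b*-/- points lie left of the sibling points in the members and in *c6ast4*, and the groups overlap or touch in most of the other genes.

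In muscle most members belong to calcium cycling, fuel use and purine recycling. *atp2a1l*, a sarcoplasmic calcium pump, was the most abundant with 569, 598 and 652 CPM in *fdx1b*-/- pools, against 839, 759 and 764 CPM in sibling pools (log2 fold change -0.38, SE 0.07). The gap between the groups was wider than the spread within either. The family member *atp2a1*, the main pump of fast muscle, had 2647, 2649 and 2735 CPM in *fdx1b*-/- pools and 2688, 2519 and 2585 CPM in sibling pools, and its groups overlapped. *RYR2*, the calcium release channel known from heart and brain in mammals, had 59.8, 60.5 and 65.0 CPM in *fdx1b*-/- pools and 93.4, 104 and 81.6 CPM in sibling pools. The muscle phosphofructokinase gene *pfkma* (glycolysis) had 35.9, 39.4 and 38.2 CPM in *fdx1b*-/- pools and 56.7, 50.6 and 54.3 CPM in sibling pools. *pygma*, the muscle glycogen phosphorylase, *ckmt2b*, a mitochondrial creatine kinase, and *atp2a2a*, a further calcium pump gene, were also members. A pair of loci named *ucp3*, for mitochondrial uncoupling carriers, had similar differences. The first (ENSDARG00000091209) had 132, 137 and 141 CPM in *fdx1b*-/- pools against 194, 183 and 202 CPM in sibling pools. The second (ENSDARG00000043154) has the name *UCP2* in the reference table and also stands in the metabolic list. It had 117, 120 and 125 CPM in *fdx1b*-/- pools against 162, 159 and 179 CPM in sibling pools. Their counts were not near identical, and neither overlapped between the groups, which the rule required.

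*ankrd1b*, a stretch-responsive nuclear and sarcomeric ankyrin repeat protein, had the second largest difference among the members. Its level was 35.7, 40.1 and 35.8 CPM in *fdx1b*-/- pools and 64.6, 52.5 and 60.1 CPM in sibling pools (log2 fold change -0.68, SE 0.08). *adssl1*, which together with AMP deaminase runs the purine nucleotide cycle of muscle, had 66.9, 73.8 and 75.8 CPM in *fdx1b*-/- pools and 101, 107 and 89.5 CPM in sibling pools. In both genes every *fdx1b*-/- pool was below every sibling pool, as the rule required of all members. The AMP deaminase gene *ampd1* met the same limits and was left out by name. It fell, with 171, 176 and 177 CPM in *fdx1b*-/- pools and 292, 238 and 265 CPM in sibling pools (log2 fold change -0.60, SE 0.08, adjusted p = 0.00147).

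The muscle list as a whole did not share this direction. Of its 77 tested genes 32 lay below 0, the median log2 fold change was 0.04, and 11 were called lower, 8 of them members, and 4 higher. DESeq2 called 17 lower and 15 higher (2.15% of all genes with an adjusted p by DESeq2 were called higher). At an unadjusted p under 0.05 the edgeR counts were 20 lower and 26 higher. Of the 67 genes that are not members, edgeR called 3 lower and 4 higher, and DESeq2 7 lower and 15 higher. In all such counts a gene left out by name, such as *ampd1*, stands with the non-members of any list that holds it. The rule fixed the direction of such a gene too. At an unadjusted p under 0.05, 10 of the 67 were lower and 26 higher. The genes called higher include contractile proteins. *tnnt3a*, a fast troponin T, rose to 176, 177 and 155 CPM in *fdx1b*-/- pools, against 101, 101 and 104 CPM in sibling pools (log2 fold change 0.73, SE 0.07, adjusted p = 0.000201). *myhb*, a myosin heavy chain, rose to 488, 494 and 493 CPM in *fdx1b*-/- pools, against 366, 302 and 374 CPM in sibling pools (log2 fold change 0.50, SE 0.08, adjusted p = 0.00704). The calcium buffers *casq1b* and *pvalb3* were the other genes called higher. Outside the members, *phkg1a*, a subunit of the kinase that activates glycogen phosphorylase, fell (log2 fold change -0.90, SE 0.10, adjusted p = 0.000795), as did *dusp27* (-0.36, SE 0.06, adjusted p = 0.00546). The muscle creatine kinase *ckma* had 2266, 2224 and 2384 CPM in *fdx1b*-/- pools and 2133, 1958 and 2236 CPM in sibling pools, with overlapping groups.

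**Figure D3:**
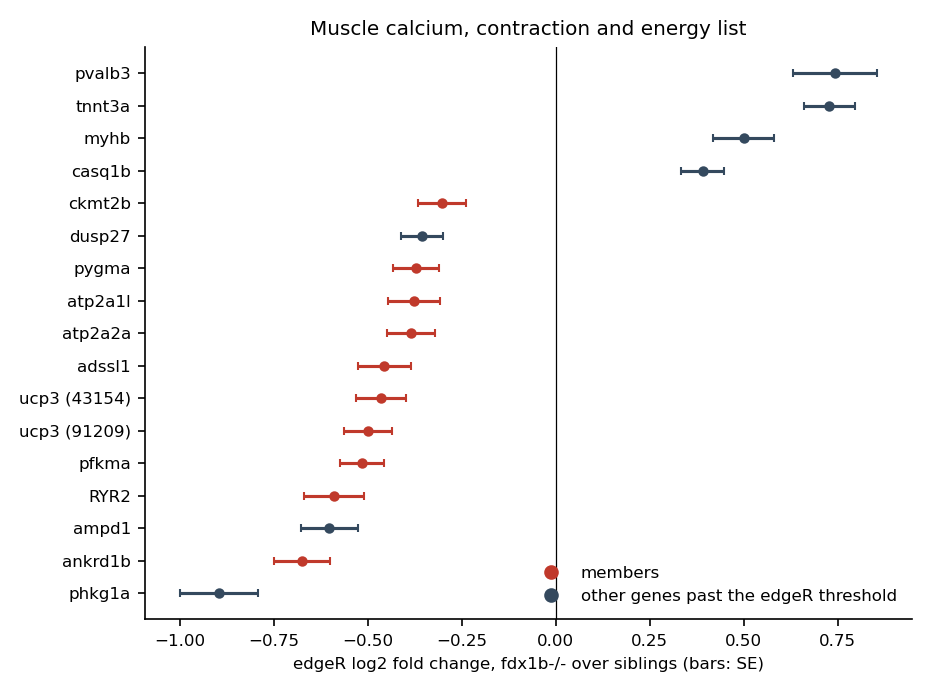
edgeR log2 fold change of *fdx1b*-/- over sibling pools (horizontal, bars are SE, n = 3 pools each) for the genes of the muscle list that are members (red) or passed the threshold outside the members (dark blue). Calcium pump, glycolysis, purine cycle and uncoupling carrier genes lie to the left of 0, and *pvalb3*, *tnnt3a*, *myhb* and *casq1b* lie to the right.

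The 3 neuronal lists, of transporters, presynaptic proteins and receptors or adhesion proteins, supplied 27 members. Not every gene of these lists is particular to neurons. Among the transporters, *slc1a2b*, a glutamate transporter, also stands in the list of glia markers. It had 102, 102 and 111 CPM in *fdx1b*-/- pools, against 157, 173 and 113 CPM in sibling pools (log2 fold change -0.49, SE 0.12). Sibling pools 1 and 2 were far above the mutants, and sibling pool 3 lay just above the highest *fdx1b*-/- pool. Both chloride extruders of neurons, *slc12a5a* and *slc12a5b*, were members. *slc12a5a* had 56.3, 57.4 and 62.7 CPM in *fdx1b*-/- pools and 92.3, 88.5 and 67.3 CPM in sibling pools. *slc6a1a*, a GABA transporter, had 62.3, 61.8 and 70.4 CPM in *fdx1b*-/- pools and 84.7, 85.2 and 70.7 CPM in sibling pools. The bicarbonate transporter *slc4a10a* and *slc6a17*, which loads amino acids into vesicles in mammals, complete the transporters. Again sibling pool 3 was the closest to the mutants.

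The presynaptic members span vesicle cargo, release and retrieval. *sv2a*, a membrane protein of synaptic vesicles, had 79.8, 74.9 and 79.7 CPM in *fdx1b*-/- pools, against 129, 125 and 87.0 CPM in sibling pools (log2 fold change -0.54, SE 0.12). *PCLO*, a scaffold of the active zone, had 60.7, 55.8 and 53.5 CPM in *fdx1b*-/- pools and 82.0, 113 and 65.3 CPM in sibling pools (log2 fold change -0.60, SE 0.15). In both genes sibling pool 3 lay nearer to the *fdx1b*-/- pools than to the other siblings. *dnm1a*, a dynamin of vesicle retrieval, had 84.6, 91.2 and 94.2 CPM in *fdx1b*-/- pools and 124, 131 and 110 CPM in sibling pools. *kif1ab*, a kinesin that carries vesicle precursors along axons, had 88.6, 94.6 and 98.0 CPM in *fdx1b*-/- pools and 135, 135 and 102 CPM in sibling pools. *dmxl2* and *cadpsb*, which act in vesicle acidification and dense-core vesicle release, had log2 fold changes of -0.40 and -0.38.

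The 15 receptor, channel and adhesion members included 3 pore-forming subunits of voltage-gated calcium channels (*cacna1aa*, *cacna1ab*, *cacna1da*), the AMPA receptor subunit *gria4a*, the GABA-B receptor subunit *gabbr1b*, the ankyrins *ank1b* and *ank2b*, and the adhesion and surface proteins *nrxn2a*, *dscamb*, *astn1*, *CSMD3* and *csmd2*. *ank2b*, which anchors channels to the axonal membrane skeleton, was the most abundant with 221, 222 and 208 CPM in *fdx1b*-/- pools, against 269, 303 and 237 CPM in sibling pools (log2 fold change -0.31, SE 0.09). *cacna1aa*, of the P/Q type channel, had 103, 102 and 104 CPM in *fdx1b*-/- pools and 132, 145 and 111 CPM in sibling pools. The *fdx1b*-/- pools of this gene were almost equal, whereas the sibling pools spread widely. In all 15 sibling pool 2 was the highest and sibling pool 3 the lowest of the siblings. The same order held in *atp1a3a*, the sodium pump subunit of neurons, with 169, 166 and 173 CPM in *fdx1b*-/- pools and 232, 269 and 183 CPM in sibling pools. Its paralogue *atp1a3b* had 129, 133 and 135 CPM in *fdx1b*-/- pools and 195, 188 and 175 CPM in sibling pools (log2 fold change -0.49, SE 0.06) and did not have that order. The plasma membrane calcium pumps *atp2b2*, *atp2b3a* and *atp2b3b* had log2 fold changes of -0.45, -0.31 and -0.43.

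The 3 neuronal lists held 169 tested genes, of which 157 had a log2 fold change below 0, with a median of -0.26. These include the 27 members, whose direction the rule fixed. Of these 27, edgeR called only 1 lower (*dnm1a*), beside 0.497% of all tested genes, and DESeq2 called 23. Among the 15 receptor, channel and adhesion members edgeR called 0. *slc1a2b*, *slc4a10a*, *sv2a* and *PCLO* were called by neither test. Of the 142 genes that are not members, 130 lay below 0 and the median was -0.23, a value that the removal of the members pulls towards 0. Among these 142 edgeR called 2 lower (*slc24a3* and *sybu*) and 0 higher. Of all genes with an adjusted p by DESeq2, 2.18% were called lower. DESeq2 called 27 of the 142 lower and 0 higher, and at an unadjusted p under 0.05 the edgeR counts were 97 lower and 2 higher. *slc24a3*, a calcium exchanger, fell (log2 fold change -0.39, SE 0.06, adjusted p = 0.00775), and *sybu*, a kinesin linker of axonal transport, fell (-0.37, SE 0.06, adjusted p = 0.00669). The summed level of all 169 was 9641, 9946 and 10279 CPM in *fdx1b*-/- pools, against 12020, 12344 and 10739 CPM in sibling pools. Sibling pool 3 thus lay within a short distance of *fdx1b*-/- pool 3. Leaving out single pools moved the median of these lists between -0.33 and -0.21.

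The other marker lists did not share the direction of the neuronal and digestive lists throughout. Markers of photoreceptors (37 tested, median log2 fold change -0.01), lens (17, -0.04) and glia and myelin (18, -0.08) lay near 0, with 0 called by edgeR. At an unadjusted p under 0.05 they had 4, 3 and 5 genes lower and 2, 0 and 0 higher, and DESeq2 called 1, 0 and 1 lower and 1, 0 and 0 higher. *rp1l1b* of photoreceptors was a member, with 66.4, 75.7 and 61.3 CPM in *fdx1b*-/- pools and 88.5, 87.8 and 80.3 CPM in sibling pools. The glia list held the member *slc1a2b*, which is also counted in the transporter list. Medians were above 0 for markers of proliferating cells (0.17), hepatocytes (0.17), keratins and skin proteins (0.14), erythrocytes (0.12) and ionocytes (0.09), and none of these lists held a member. Among them edgeR called 2 genes higher and 1 lower among hepatocyte markers, 1 each way among keratins and 2 lower among ionocyte markers. DESeq2 called 5 hepatocyte markers higher and 1 lower, 6 keratins and skin proteins higher and 2 lower, and 0 ionocyte markers higher and 2 lower. At an unadjusted p under 0.05 the edgeR counts were 9 higher and 1 lower for hepatocyte markers, 14 higher and 4 lower for keratins and skin proteins, and 3 each way for ionocyte markers. Among 19 proliferation markers 0 were called by edgeR (11 higher and 0 lower at an unadjusted p under 0.05, and 2 higher by DESeq2), and among 7 erythrocyte markers 0 (3 higher and 0 lower, and 1 higher by DESeq2). The 13 proteins of the mitochondrial genome had a median of 0.001 and 0 calls by edgeR (1 lower and 2 higher at an unadjusted p under 0.05, and 1 lower by DESeq2). The ion pump list as a whole had a median of -0.07 over 28 genes, 2 of them called lower, both members, and 0 higher (7 lower and 1 higher by DESeq2, and 10 lower and 2 higher at an unadjusted p under 0.05). Its 21 genes that are not members had a median of -0.0002 and 0 calls by edgeR (3 lower and 2 higher at an unadjusted p under 0.05, and 1 higher by DESeq2).

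The order of the sibling pools differed between the roles of the members. Over all 109, sibling pool 2 was the highest sibling pool in 66 and sibling pool 3 the lowest in 76. The shares of these orders over all abundant genes were not computed, so the orders cannot be called particular to the members. In the 27 neuronal list members sibling pool 3 was lowest in 27 and pool 2 highest in 24. In the 10 digestive members sibling pool 3 was highest in 8, and in the 10 muscle members sibling pool 2 was lowest in 7. The median deviation of the neuronal list members from their mean over the 6 pools, on the log2 scale, was -0.21, -0.20 and -0.13 in *fdx1b*-/- pools and 0.22, 0.33 and -0.01 in sibling pools. The median coefficient of variation of the members was 4.36% among *fdx1b*-/- pools and 10.6% among sibling pools. Over all abundant genes it was 3.42% among *fdx1b*-/- pools and 5.68% among sibling pools, so the wider spread of the siblings was not limited to the members.

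**Figure D4:**
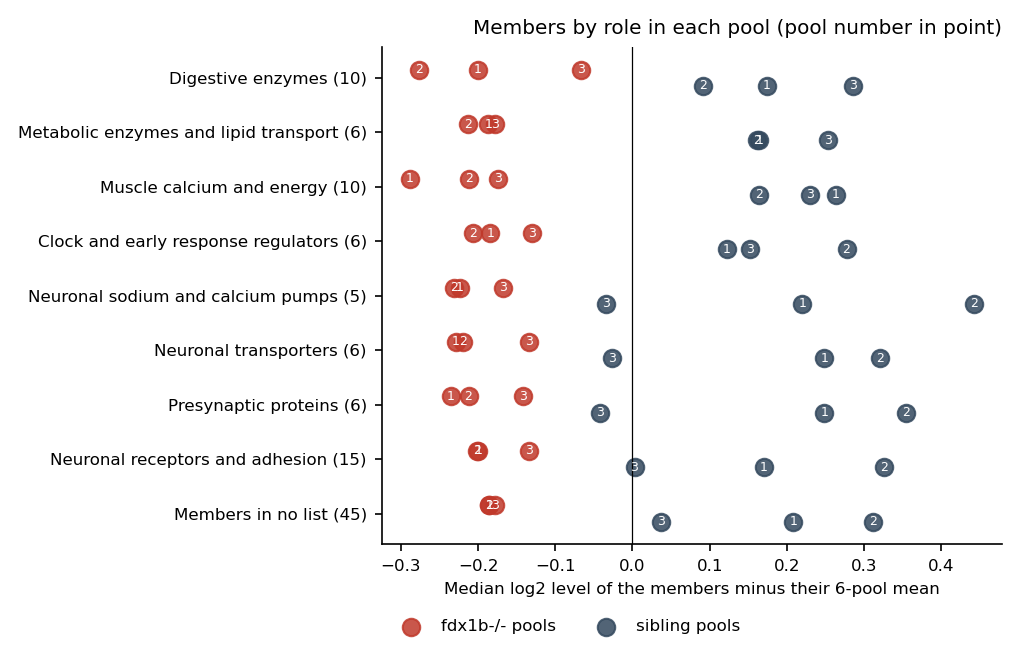
Median log2 level of the members of each role in each pool, as the deviation from the mean over all 6 pools (horizontal), with *fdx1b*-/- pools in red, sibling pools in dark blue, the pool number in each point and the number of members in brackets. In the neuronal rows sibling pool 3 lies near 0 and pool 2 farthest right, whereas in the digestive row sibling pool 3 lies farthest right.

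Regulators of the clock and of the early response to hormones and stress made up 6 members. *per3*, of the period family of clock proteins, had 194, 192 and 197 CPM in *fdx1b*-/- pools and 233, 287 and 219 CPM in sibling pools. *per2*, a light-induced repressor of the zebrafish clock, had 197, 182 and 174 CPM in *fdx1b*-/- pools and 254, 251 and 202 CPM in sibling pools. Their groups did not overlap, as the rule required, but sibling pool 3 was the lowest sibling in both. *nr1d1*, the nuclear receptor Rev-erb alpha, was a member with a log2 fold change of -0.31, whereas its relatives *nr1d2a* and *nr1d2b* had log2 fold changes of -0.10 (SE 0.07) and 0.08 (SE 0.06) and were not called. All samples come from a single time of day, so a lower level and a shifted phase cannot be told apart. *mych*, a Myc family transcription factor, had 64.4, 64.4 and 68.2 CPM in *fdx1b*-/- pools, against 90.4, 104 and 107 CPM in sibling pools (log2 fold change -0.62, SE 0.07). *dusp1*, a phosphatase of MAP kinases that glucocorticoids induce in mammals, had 55.6, 55.9 and 60.4 CPM in *fdx1b*-/- pools and 71.8, 72.8 and 80.6 CPM in sibling pools. *nfkbiab*, an inhibitor of NF-kappaB, was the last of this group. Other genes of the list lay outside the band. *klf9*, a direct target of the glucocorticoid receptor, fell to 13.4, 15.2 and 17.6 CPM in *fdx1b*-/- pools, against 31.5, 37.2 and 36.9 CPM in sibling pools (log2 fold change -1.19, SE 0.10, adjusted p = 8.55e-05). Of 54 tested genes of this list 8 were called lower and 0 higher by edgeR, against 18 lower and 0 higher by DESeq2. At an unadjusted p under 0.05, 30 were lower and 3 higher. These counts include the 6 members, whose direction the rule fixed. Of the 48 genes that are not members, edgeR called 6 lower and 0 higher, and DESeq2 12 lower and 0 higher. At an unadjusted p under 0.05, 24 of the 48 were lower and 3 higher.

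Metabolic members act in lipid transport and elongation, in electron supply to cytochrome P450 enzymes and in mitochondrial metabolism. *abca1b*, a cholesterol exporter, had 157, 149 and 145 CPM in *fdx1b*-/- pools, against 191, 191 and 202 CPM in sibling pools. *porb*, the reductase that feeds electrons to microsomal cytochrome P450 enzymes, had 99.4, 94.4 and 97.6 CPM in *fdx1b*-/- pools and 119, 138 and 122 CPM in sibling pools. Neither gene overlapped between the groups, as the rule required. *elovl2*, an elongase of polyunsaturated fatty acids, *NPC1L1*, an intestinal sterol transporter, and *ogdhb*, a subunit of the 2-oxoglutarate dehydrogenase complex, had log2 fold changes of -0.42, -0.32 and -0.34. The second *ucp3* locus described with muscle (ENSDARG00000043154) was also a metabolic member, with a log2 fold change of -0.47 (SE 0.07). The list of the metabolic members went both ways, with 9 of 45 tested genes called lower and 3 higher by edgeR. DESeq2 called 17 lower and 6 higher, and 23 were lower and 9 higher at an unadjusted p under 0.05. Of its 39 genes that are not members, edgeR called 7 lower and 3 higher, and DESeq2 11 lower and 6 higher. At an unadjusted p under 0.05, 17 of the 39 were lower and 9 higher. *pygl*, the liver glycogen phosphorylase, rose (log2 fold change 1.15, SE 0.07, adjusted p = 1.19e-05), while *pygma* of muscle was a member on the lower side, and the apolipoprotein gene *apoa1a* rose (1.33, SE 0.09, adjusted p = 1.58e-05).

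The other 45 members stood in none of the lists and were sorted by known function after their values had been seen. The largest differences were those of *afp4*, *sec23b* and *ulk2*. *afp4*, named after type IV antifreeze protein of fish, had 66.2, 59.6 and 67.5 CPM in *fdx1b*-/- pools, against 99.6, 94.8 and 109 CPM in sibling pools (log2 fold change -0.65, SE 0.07). *sec23b*, a coat protein of vesicles that leave the endoplasmic reticulum, had 49.7, 49.6 and 47.8 CPM in *fdx1b*-/- pools and 73.6, 79.5 and 74.6 CPM in sibling pools (log2 fold change -0.63, SE 0.05). In both the gap between the groups was wider than the spread within either. *ulk2*, a kinase that starts autophagy, had 76.1, 78.3 and 80.4 CPM in *fdx1b*-/- pools and 117, 121 and 109 CPM in sibling pools (log2 fold change -0.57, SE 0.06). *serpinh1b*, the collagen chaperone Hsp47, had 89.97, 96.04 and 88.52 CPM in *fdx1b*-/- pools and 143, 130 and 120 CPM in sibling pools. *abcb5*, an ABC transporter, had 130, 135 and 119 CPM in *fdx1b*-/- pools and 191, 185 and 178 CPM in sibling pools. In all of these the lowest sibling pool stood well above the highest *fdx1b*-/- pool. The peptidase gene *ace* and *pcsk1*, a prohormone convertase of endocrine cells and neurons, had log2 fold changes of -0.32 and -0.37.

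Other unlisted members included genes of nuclear and cytoskeletal function. Among 7 genes of transcription, chromatin and RNA were the RNA-binding *NOVA1*, the acetyltransferase *ep300b*, the deacetylase *hdac5*, the hypoxia factor *epas1b*, *SPEN*, *ZFHX4* and *camta1a*, with log2 fold changes between -0.42 and -0.31. *NOVA1*, a splicing factor of neurons, had 130, 124 and 126 CPM in *fdx1b*-/- pools, against 164, 204 and 135 CPM in sibling pools. Sibling pool 2 was the highest pool in all 7. The 9 kinase and cytoskeleton members, among them *WNK1*, *syne1a*, *fryb*, *mast2* and *map4l*, had sibling pool 2 as the highest pool in 8 cases. *BIRC6*, *HECTD4*, *wdfy3* and *hecw1b*, large proteins of ubiquitin transfer and autophagy, had log2 fold changes between -0.36 and -0.32, and *ubb*, a polyubiquitin gene, had -0.36. A further 4 had known neuronal expression (*nbeaa*, *sgip1a*, *shisa7b*, *si:ch211-236p22.1*), and for 10 members no role is stated here.

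Length was a feature that the rule did not use, although long genes reach 50 CPM more readily because CPM are not divided by length. The summed exons of the members had a median length of 5365 bases (quartiles 3656 and 9022), against 3708 bases (2172 and 6070) for all abundant genes. The 91 abundant genes with rises of the same size, and all *fdx1b*-/- pools above all sibling pools, had a median of 2330 bases. Exons over 6000 bases were found in 44.0% of members, 25.6% of abundant genes and 11.0% of those rises. The ratio of the genotype means moved with length across all abundant genes. Its median log2 value was 0.06 for the 248 genes of up to 1000 bases and -0.09 for the 283 genes over 10000 bases. Members were 1.21% of the shortest and 7.42% of the longest of these classes. The longest class had median deviations of -0.04, -0.03 and -0.04 in *fdx1b*-/- pools and of 0.05, 0.11 and -0.06 in sibling pools, the same order of sibling pools as in the neuronal members. The shortest class had 0.03, 0.03 and 0.06 in *fdx1b*-/- pools and -0.02, -0.15 and 0.05 in sibling pools. In both classes sibling pool 3 lay on the side of the *fdx1b*-/- pools, and sibling pool 2 lay farthest from them. The trend with length thus did not separate all sibling pools from the *fdx1b*-/- pools. With offsets that removed the trend the median log2 fold change of the members was -0.34, against -0.37 without them. The roles moved unevenly. The median went from -0.34 to -0.28 in the receptor, channel and adhesion members, and from -0.34 to -0.29 in those of transcription, chromatin and RNA. In the digestive members it went from -0.35 to -0.36. All these medians are of members that the rule chose as lower, so nothing is read from their staying below 0.

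**Figure D5:**
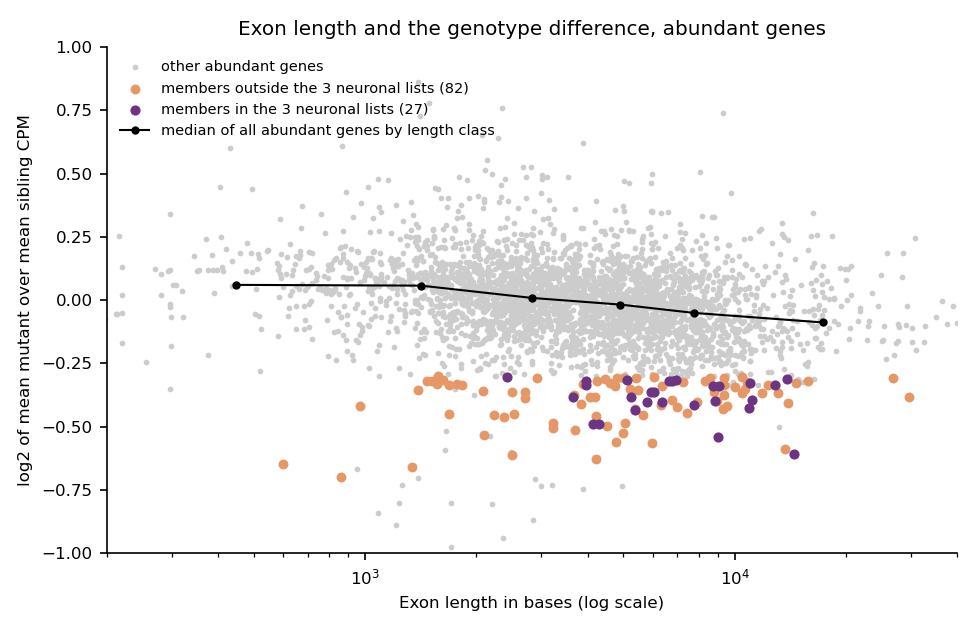
Summed exon length (horizontal, bases, log scale) and log2 ratio of the *fdx1b*-/- mean to the sibling mean (vertical) for abundant genes in grey, neuronal list members in purple and other members in orange, with the median of all abundant genes by length class in black. The median declines from 0.06 to -0.09 with length, and the neuronal members lie among the longer genes.

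The median of the neuronal lists was below 0 in every length class, with or without the members. Among the 24 genes of up to 2000 bases, none of which is a member, the median log2 fold change was -0.18 in the 8 shortest and -0.16 in the other 16. Abundant genes of those lengths had medians of 0.06 and 0.05. The neuronal genes were taken at any level, the abundant genes only from 50 CPM, so these sets also differ in level. In the 18 longest neuronal genes the median was -0.29, and in the 12 of them that are not members it was -0.24. After the offsets the median was -0.23 over all 169, which include the 27 members whose direction the rule fixed. Digestive enzyme members were short, with a median of 1689 bases.

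Levels per length put the members on a common scale. *CELA1* (ENSDARG00000017314) had 916 CPM per kb of exon in *fdx1b*-/- larvae and 1152 in siblings, and *zgc:136461* had 676 CPM per kb in *fdx1b*-/- larvae and 1096 in siblings. Among members outside the digestive list *atp2a1l* stood highest with 165 CPM per kb in *fdx1b*-/- larvae and 214 in siblings. The neuronal list members lay lower, such as *cacna1aa* with 9.36 CPM per kb in *fdx1b*-/- larvae and 11.8 in siblings. By symbol, 96 members were found in the RefSeq gene table of another assembly, on 24 chromosomes. None of them were direct neighbours, and 1 pair (*nrxn2a* and *pygma*) had at most 2 genes between them.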

How the data were processed

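Exonic read counts of 6 libraries were used. The authors aligned the reads (single-end, 50 bases) to GRCz10 by STAR, version 2.4.0i per the labels. Uniquely mapped reads were assigned to the exons of Ensembl loci by their own script, and the counts were deposited unnormalized beside the exon length of each gene. Whether strand was used in counting is not given in the sources used here, so overlapping and antisense genes can share reads. Intronic counts were not analysed here.

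CPM were computed from column sums. The genotypes were compared with edgeR 4.0.16 in R 4.3.3 (TMM, filterByExpr, quasi-likelihood F test, Benjamini-Hochberg adjustment over 26544 genes), after a test on simulated data, and with DESeq2 1.42.0 as an alternative. The SE of a log2 fold change is its size over the root of its F value. In these libraries 3 counts amount to 0.0601 to 0.164 CPM, a floor for counting error only.

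Members, 17 gene lists and tests were chosen with earlier results of these data known. Members named with values were the up to 5 most abundant of each list, the 5 most abundant and the 5 with the largest difference, and the genes next to the limits of the rule. Other genes named with values, among them *try*, *ctrb.3*, *atp2a1*, *tnnt3a*, *myhb*, *ampd1*, *klf9*, *fkbp5*, *pygl* and *apoa1a*, were chosen after their values were seen, as were *pla2g1b*, *RYR2*, *pfkma* and the roles of unlisted members. Names came from the supplementary tables of the study for 103 members and from the reference gene table for 6. Alternatives were other size factors, no filter, DESeq2, a replicate block, offsets for exon length, other level limits, thinned libraries and each pool left out. Promoter motifs were not analysed here.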

Additional observations from a re-analysis of the deposited data

How the results depend on the processing

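Single pools set most counts of calls. Leaving out 1 pool in turn gave between 59 and 342 genes called lower (132 with all pools), between 49 and 280 called higher (164), between 7 and 75 members called (26), between 16 and 98 genes of the lists called lower (35) and between 3 and 17 called higher (8). The highest counts came without sibling pool 3 or pool 2. The rule itself gave between 80 and 225 members, 80 without sibling pool 2 (59 of them among the 109) and 225 without sibling pool 3 (100 of the 109). The Wald test of DESeq2 called 445 genes lower and 440 higher, 97 members, and 122 list genes lower and 28 higher. The median length of the members was 1.45 times that of abundant genes and 2.63 times that of all tested genes.

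Replicate numbers occur in both genotypes. Deviations of same-numbered pools from their genotype mean correlated at -0.14, -0.14 and 0.09, and not every pool correlated best with its own number. With so few pools in each genotype, these correlations cannot decide whether same-numbered pools were paired. With the replicate number as a block, 107 genes were called lower, 95 higher and 20 members.

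The median log2 fold change of the members stayed between -0.41 and -0.32 without single pools and at -0.34 with offsets for exon length. Of 864 alternative values of 72 named members, 0 changed sign and 862 moved by less than the spread between pools. The exceptions were *abca1b* and *pkhd1l1* with offsets for exon length, at -0.32 and -0.30. Because the rule asked for full separation of the pools, the kept sign was largely fixed in advance, and nothing is read from it. Other settings of normalization, filter, level limit and thinning kept the counts of members within 1.5 times. With all libraries thinned to the smallest total, 18247332 counts, the rule gave 106 genes, 96 of them among the 109.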
